A study of Mus musculus with 12 samples.

Results

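Imprinted genes are transcribed mainly or only from the copy inherited from a given parent. The account below describes 50 of them among the 55487 genes counted in embryoid bodies that were, or were not, induced to express the homeobox gene Mixl1. They were chosen from known imprinted genes by a list compiled with results of these libraries known, and the rule itself sets no threshold on a measured value. Each was matched by its Ensembl identifier, and by the literature 28 are transcribed from the paternal copy, 12 from the maternal copy, and 10 from either according to tissue or from both copies. They lie in 22 clusters or single loci. A filter on low counts left 47 for testing, while Snurf, Slc38a4 and Rasgrf1 did not pass it.

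In the study, mouse embryonic stem cells were converted to epiblast stem cells, which are pluripotent and primed to differentiate, and carried a FLAG-tagged Mixl1 transgene switched on by doxycycline. The cells were grown as embryoid bodies in serum medium on an orbital shaker, and RNA was sequenced in bulk from 4 groups of 3 libraries. NoDox_d2 and NoDox_d4 are the same transgenic cells collected on days 2 and 4 without the drug. D1Dox_d2 and D3Dox_d4 were given doxycycline at 1 µg/mL and collected on days 2 and 4. What the digit following the D in a group name counts is not stated in the sources used here. All 4 groups carry the transgene and no transgene-free cells received the drug, so responses to doxycycline and to Mixl1 cannot be told apart. The sources name a single engineered line and do not call the replicates separate cultures, which means that each p-value covers the spread among these libraries, possibly technical only.

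An imprint is laid down in the germ line as DNA methylation on a control region, differs between the egg and the sperm, and is kept through the divisions of the embryo. It acts over a cluster, where a control region typically governs protein-coding genes of a given parental copy and a long noncoding RNA of the opposite copy. ZFP57, a KRAB zinc finger protein, binds its motif TGCCGC when the CpG in it is methylated and recruits TRIM28 to keep the methylation. Many of these genes set fetal and placental growth, and several are abundant in embryonic mesoderm, fibroblasts or neurons. Reads were not assigned to parental copies in these data, so a level says nothing of which copy was transcribed. In bulk RNA, a change in the number of cells of a type and a change in RNA per cell cannot be told apart.

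Promoter windows show how unlike these loci are in the letters that ZFP57 reads. RefSeq windows of 250 bases before to 50 bases after a transcription start (build GRCm38.p6) were found for 42 of the 50 genes, with 66 windows in all. TGCCGC, or its reverse complement GCGGCA, occurred in 15 of the 66 windows (22.7%), against 3813 of 32851 windows of all genes (11.6%). A window of an imprinted gene held a median of 15.5 CpG dinucleotides against 7 over all windows. The motif itself holds a CpG, and how far the CpG content accounts for the share of windows with the motif was not tested. A match is a description of letters and not a binding site. The 6 windows printed here belong to genes described below, all on the plus strand, with the motif on either strand in capitals. The upstream Zdbf2 window held 3 copies, and the window at the downstream start held none. Of the 2 Meg3 windows, the one printed held 1 copy and the other none. Of the 3 Mest windows, the one printed and another that overlaps it held 2 copies each, and the third none, while Ndn and Magel2, neighbours that rose together at day 4, had none.
Zdbf2, upstream start, chr1:63200108-63200407: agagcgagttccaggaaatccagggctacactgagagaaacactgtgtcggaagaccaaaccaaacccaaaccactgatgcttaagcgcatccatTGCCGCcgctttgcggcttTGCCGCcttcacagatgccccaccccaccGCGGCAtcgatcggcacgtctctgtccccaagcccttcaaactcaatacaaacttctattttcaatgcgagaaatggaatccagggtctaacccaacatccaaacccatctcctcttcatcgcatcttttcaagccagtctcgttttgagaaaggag
Zdbf2, downstream start, chr1:63273019-63273318: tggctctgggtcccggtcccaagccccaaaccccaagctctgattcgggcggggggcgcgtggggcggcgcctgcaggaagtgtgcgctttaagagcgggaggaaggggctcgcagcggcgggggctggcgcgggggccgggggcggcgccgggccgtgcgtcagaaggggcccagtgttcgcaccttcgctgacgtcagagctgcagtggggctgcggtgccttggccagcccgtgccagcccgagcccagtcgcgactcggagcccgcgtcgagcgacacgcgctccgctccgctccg
Meg3, chr12:109540746-109541045: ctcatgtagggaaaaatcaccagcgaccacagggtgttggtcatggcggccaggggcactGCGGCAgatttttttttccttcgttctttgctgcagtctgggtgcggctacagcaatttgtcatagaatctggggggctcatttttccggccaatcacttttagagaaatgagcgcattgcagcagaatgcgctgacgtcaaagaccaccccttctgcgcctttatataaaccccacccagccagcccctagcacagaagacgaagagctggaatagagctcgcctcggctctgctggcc
Mest, chr6:30737800-30738099: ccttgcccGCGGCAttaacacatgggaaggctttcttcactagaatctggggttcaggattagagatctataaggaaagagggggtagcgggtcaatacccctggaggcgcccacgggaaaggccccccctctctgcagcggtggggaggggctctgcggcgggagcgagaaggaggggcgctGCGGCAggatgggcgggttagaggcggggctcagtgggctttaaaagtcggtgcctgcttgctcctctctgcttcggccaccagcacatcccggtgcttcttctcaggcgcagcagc
Ndn, chr7:62348027-62348326: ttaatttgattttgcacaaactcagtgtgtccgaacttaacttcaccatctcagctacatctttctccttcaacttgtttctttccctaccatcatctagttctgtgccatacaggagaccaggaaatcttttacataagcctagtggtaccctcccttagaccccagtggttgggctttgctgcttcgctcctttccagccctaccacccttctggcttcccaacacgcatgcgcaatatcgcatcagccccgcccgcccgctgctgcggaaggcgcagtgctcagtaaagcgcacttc
Magel2, chr7:62376729-62377028: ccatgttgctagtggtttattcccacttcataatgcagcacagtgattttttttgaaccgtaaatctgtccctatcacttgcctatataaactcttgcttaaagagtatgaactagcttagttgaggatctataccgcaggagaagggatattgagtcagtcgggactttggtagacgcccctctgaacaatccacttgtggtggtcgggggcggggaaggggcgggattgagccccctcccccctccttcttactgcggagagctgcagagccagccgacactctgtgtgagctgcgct

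Libraries held 24100487 to 28020036 counts, and levels are given as CPM (counts scaled to equal library size, with TMM factors). At these depths 3 counts correspond to 0.106 to 0.130 CPM, the limit that a count of 0 allows for counting error alone. For Mixl1, D1Dox_d2 held 361.9 to 392.2 CPM and D3Dox_d4 417.5 to 477.7. It stood at 0.593 to 1.83 CPM in 5 of the 6 libraries without the drug, but NoDox_d2 replicate 1 held 91.0 CPM. Counts per gene do not tell the transgene from the cells' own Mixl1 gene, and the source of this value was not tested. NoDox_d2 replicate 1 and NoDox_d4 replicate 1 correlated with the other libraries of their groups at 0.969 to 0.972 (log2 CPM across genes), while other pairs reached 0.993 to 0.997. The numbers of calls are therefore given both with and without these libraries numbered 1, and so are the values of some genes but not of all. Of 12 fibroblast markers, 9 rose in D1Dox_d2 (75%), against 14.9% of all genes. The summed level of the 12 there was 1928 to 2377 CPM against 166.7 to 649.2 elsewhere. Xist stood at 12.1 to 19.7 CPM there against at most 2.01 elsewhere, and 7 Y-linked genes summed to 4.19 to 5.42 CPM against at most 1.06. Of 10 neuron markers, 9 rose in D3Dox_d4 (90%), against 13.4% of all genes. The sum of the 10 there was 1667 to 1844 CPM against 176.3 to 620.7 elsewhere. Of 10 visceral and yolk sac endoderm markers, 6 were tested. At day 2, 1 of these rose (16.7%) and none fell, and at day 4, 1 rose and 1 fell. Within that list Gata6 stood at 21.2 to 26.0 CPM in D1Dox_d2 against 0.593 to 0.989 in NoDox_d2. The mesoderm sum of 8 markers was 1351 CPM in NoDox_d2 replicate 1 against at most 417 elsewhere, but 1261 CPM of it were T alone. Among the others of that list, Meox1 was highest in NoDox_d4 replicate 1, at 235 CPM, and Tbx20 in D1Dox_d2, at 84.3 to 103.6 CPM. Of these 8 markers, 1 rose and 4 fell at day 2 (12.5% and 50%), against 14.9% and 13.4% of all genes. At day 4, 1 rose and 3 fell (12.5% and 37.5%), against 13.4% and 10.2%. The sum of 10 trophoblast markers was 415.2 CPM in NoDox_d2 replicate 1, 189.4 in NoDox_d4 replicate 1 and 44.69 to 122.9 elsewhere. Within it Cdx2 and Tfap2c stood at 240.9 and 161.5 CPM in NoDox_d2 replicate 1, Gata3 was 29.55 to 35.65 CPM in D1Dox_d2 against 2.68 to 7.77 elsewhere, and Tpbpa, Prl3d1 and Elf5 were at or under 0.217 CPM in all libraries. Of the 5 trophoblast markers tested, 1 rose and 2 fell at day 2 (20% and 40%), and 1 rose and 1 fell at day 4 (20% each). The epiblast sum of 8 markers was 1340 to 1512 CPM in NoDox_d2, 932 to 1022 in D1Dox_d2, 425 to 783 in NoDox_d4 and 407 to 451 in D3Dox_d4. The part of any of these markers in the results below was not tested.

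At day 2, 12 of the 47 genes tested rose with doxycycline, among them Zdbf2, Dio3, Meg3, Rian, Grb10 and Peg10. Another 4 fell, namely Peg12, Magel2, Mkrn3 and Cdkn1c. The rises are 25.5% and the falls 8.51% of the 47 genes, against 14.9% and 13.4% of the 18109 genes tested in all. Their median log2 fold change was 0.05 against −0.03 over all genes. At day 4, 13 rose and 2 fell, or 27.7% and 4.26%, against 13.4% and 10.2% of all genes, with a median of 0.19 against −0.03. Magel2, Gnas, Ndn, Dio3 and Rian had the lowest adjusted p-values among the genes that rose, and Plagl1 and Peg12 fell. By parental copy, 7 paternally transcribed genes rose and 3 fell at day 2 among 25 tested, and 6 rose and 2 fell at day 4. Of 12 maternally transcribed genes, 2 rose and 1 fell at day 2, and 2 rose and none fell at day 4. A gene is said to rise or fall where its adjusted p in edgeR's quasi-likelihood test, with Benjamini-Hochberg adjustment over all genes tested, was under 0.05, and other genes are given by their values.

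**Figure D1:**
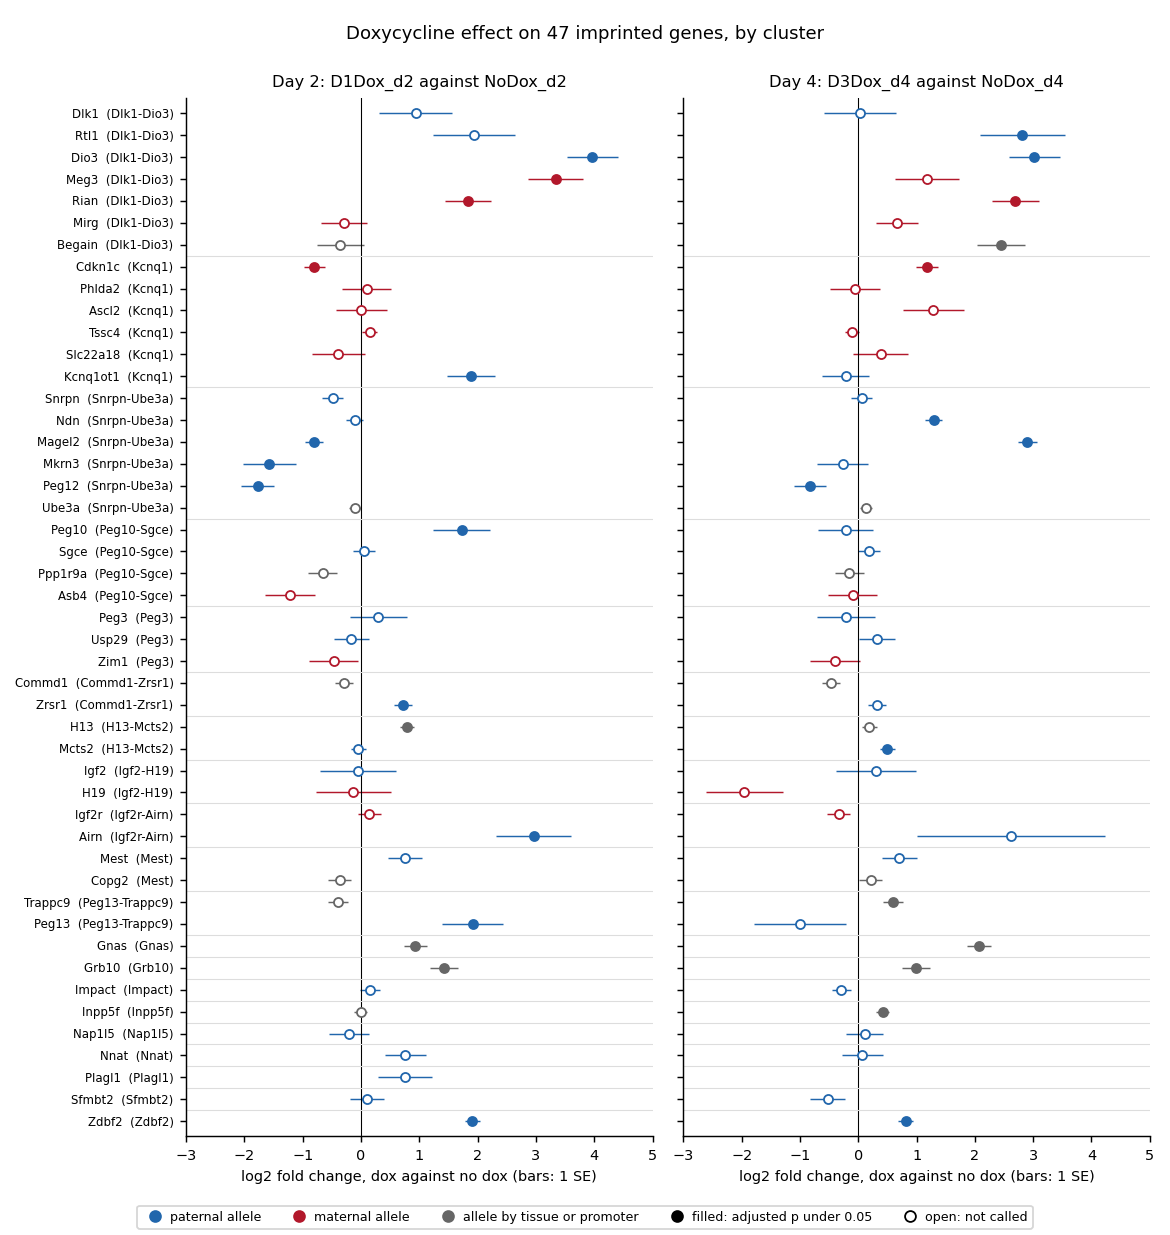
Log2 fold change (with SE) of imprinted genes by cluster at day 2 and at day 4, doxycycline against none. Filled points are called genes, open points are not called, colours give the transcribed parental copy and bars are 1 SE. Of the 7 Dlk1-Dio3 genes, 5 lie above 0 at day 2 and 7 at day 4, and Magel2 and Cdkn1c lie on opposite sides of 0 on the 2 days. Plagl1 at day 4 is not drawn, since it had no count in D3Dox_d4.

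Summed over the 50 genes, imprinted transcripts took up to 1.27% of the counts, and their sum varied with a few abundant members. The sum was 7646, 5917 and 5779 CPM in NoDox_d2 replicates 1, 2 and 3, and 11140, 12090 and 12410 CPM in D1Dox_d2. It was 12700, 4954 and 5096 CPM in NoDox_d4, and 7276, 7947 and 8355 CPM in D3Dox_d4. D1Dox_d2 lay above NoDox_d2 in every library, whereas NoDox_d4 replicate 1 lay above every D3Dox_d4 library and the other NoDox_d4 libraries below them. Paternally transcribed genes made up most of it, at 9840 to 10930 CPM in D1Dox_d2 against 4519 to 5841 in NoDox_d2. Maternally transcribed genes summed to 5232 CPM in NoDox_d4 replicate 1 and to 1049 and 1125 in replicates 2 and 3, and H19 alone stood at 4560 CPM in the former. Per kilobase of exon, Peg10 ranked 27 and Mest 32 of 18109 genes by mean level in D1Dox_d2, at 745.1 and 641.9 CPM per kb. H19 ranked 179, Peg3 417 and Zdbf2 430 on that scale.

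**Figure D2:**
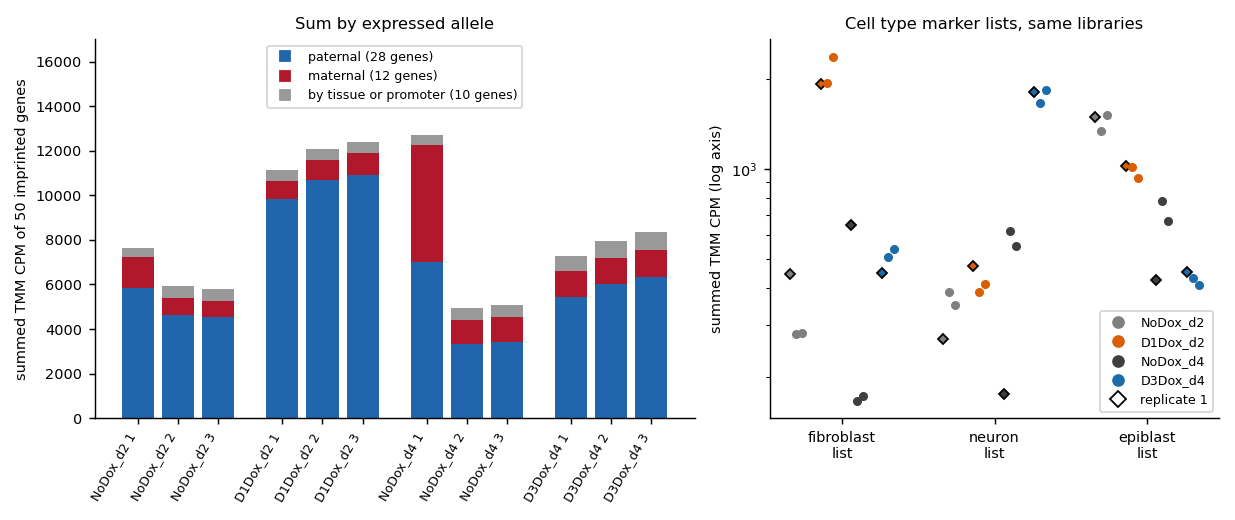
Summed CPM of the 50 imprinted genes in each of the 12 libraries, stacked by transcribed parental copy, beside the summed CPM of the marker lists. The sum is 11140 to 12410 CPM in D1Dox_d2 and 12700 CPM in NoDox_d4 replicate 1, where the maternal share is 5232 CPM. Fibroblast markers are highest in D1Dox_d2 and neuron markers in D3Dox_d4.

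The Dlk1-Dio3 cluster on chromosome 12 held more genes that rose than any other cluster, on each day, but it also held the most genes tested, 7. It carries 3 paternally transcribed protein genes, Dlk1, Rtl1 and Dio3, and 3 maternally transcribed noncoding RNAs, Meg3, Rian and Mirg, with Begain beside them. Of the 7, 3 rose at day 2 (42.9%) and 4 at day 4 (57.1%), against 14.9% and 13.4% of all genes, and none fell. Dio3 encodes the deiodinase that inactivates thyroid hormone. Its level was 0.742, 0.395 and 0.632 CPM in NoDox_d2 replicates 1, 2 and 3, 9.70, 9.32 and 8.97 in D1Dox_d2, 1.14, 0.325 and 0.269 in NoDox_d4 and 4.70, 4.50 and 5.01 in D3Dox_d4. Every induced library lay above every uninduced library of its day, and the rise was 3.97 ± 0.44 (adjusted p = 8.21e-05) at day 2 and 3.02 ± 0.44 (adjusted p = 0.000547) at day 4, on the log2 scale ± SE.

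Meg3, the noncoding RNA next to the control region of the cluster, showed the rise at day 2 and low levels throughout day 4. It stood at 0.742, 0.988 and 1.04 CPM in NoDox_d2 replicates 1, 2 and 3, 8.22, 8.87 and 11 in D1Dox_d2, 0.434, 0.447 and 0.0384 in NoDox_d4 and 0.795, 0.885 and 0.398 in D3Dox_d4. D1Dox_d2 was far above NoDox_d2, while the day 4 groups overlapped and the lowest value, in NoDox_d4 replicate 3, lies under the level of 3 counts. The log2 fold change was 3.34 ± 0.47 (adjusted p = 0.000419) at day 2 and 1.18 ± 0.54 (adjusted p = 0.143) at day 4, and the difference between the days, −2.16 ± 0.72 (adjusted p = 0.0708), did not pass. That difference passed with all libraries in DESeq2's Wald test (adjusted p = 0.00458) and in edgeR with no filter on low counts (0.0478), and also without NoDox_d4 replicate 3 (0.00948). Rian, a host of small nucleolar RNAs transcribed downstream of Meg3, rose on both days. It was at 1.31, 3.99 and 3.76 CPM in NoDox_d2 replicates 1, 2 and 3, 10.2, 10.3 and 11.8 in D1Dox_d2, 3.83, 2.03 and 1.58 in NoDox_d4 and 14.4, 17.1 and 16.7 in D3Dox_d4, with no overlap between induced and uninduced libraries of a day. The rise was 1.83 ± 0.39 (adjusted p = 0.00515) at day 2 and 2.69 ± 0.40 (adjusted p = 0.000652) at day 4. Mirg, the host of a microRNA cluster at the far end, was at 0.706, 1.90 and 1.67 CPM in NoDox_d2 replicates 1, 2 and 3, 1.10, 0.854 and 1.52 in D1Dox_d2, 4.85, 2.89 and 2.77 in NoDox_d4 and 5.50, 4.46 and 6.65 in D3Dox_d4. Its induced and uninduced libraries overlapped on both days, and all NoDox_d4 values lay above all NoDox_d2 values.

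Dlk1, a transmembrane protein of the Notch ligand type, was 39.1, 26.6 and 24.7 CPM in NoDox_d2 replicates 1, 2 and 3, 56.4, 53.7 and 63.0 in D1Dox_d2, 308, 39.0 and 39.6 in NoDox_d4 and 124, 127 and 143 in D3Dox_d4. Both induced groups lay well above the uninduced replicates 2 and 3, and NoDox_d4 replicate 1 lay above every other library. The log2 fold changes of 0.94 ± 0.63 (adjusted p = 0.288) at day 2 and 0.02 ± 0.62 (adjusted p = 0.982) at day 4 did not pass. Without both uninduced libraries numbered 1 they were 1.16 (adjusted p = 2.45e-07) and 1.74 (adjusted p = 6.32e-09), and both passed. Leaving out NoDox_d4 replicate 1 alone was enough for either (adjusted p = 0.000941 and 5.52e-05), and the day 2 value also passed in a fit of the day 2 libraries alone (0.0114). Rtl1, a retrotransposon-derived protein needed in placental vessels, was 4.73, 4.86 and 4.02 CPM in NoDox_d2 replicates 1, 2 and 3, 17.99, 16.2 and 17.7 in D1Dox_d2, 9.94, 1.06 and 0.730 in NoDox_d4 and 17.9, 29.0 and 35.6 in D3Dox_d4. The induced libraries lay above the uninduced ones on both days, by 1.93 ± 0.70 (adjusted p = 0.0597) at day 2, which missed the threshold, and 2.81 ± 0.72 (adjusted p = 0.0157) at day 4. The day 4 call was lost without D3Dox_d4 replicate 3 (adjusted p = 0.0549) and in a fit of the 6 day 4 libraries alone (0.0679). The day 2 difference passed with no filter on low counts (adjusted p = 0.0115), in a fit of the 6 day 2 libraries alone (0.000335) and on leaving out any single NoDox_d4 library (0.000107 to 0.0394). Without both libraries numbered 1 the values were 1.96 (adjusted p = 1.18e-05) and 4.94 (adjusted p = 1.96e-08). Short microRNA genes on the opposite strand overlap Rtl1, and the counting did not use strand.

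Begain, which encodes a protein of the postsynaptic density, rose at day 4. It stood at 4.56, 16.5 and 16.3 CPM in NoDox_d2 replicates 1, 2 and 3, 10.5, 9.15 and 9.57 in D1Dox_d2, 7.73, 17.6 and 15.6 in NoDox_d4 and 68.1, 78.5 and 78.0 in D3Dox_d4. D3Dox_d4 was far above all other libraries, and at day 2 the induced values lay between NoDox_d2 replicate 1 and replicates 2 and 3. The log2 fold change was −0.35 ± 0.40 (adjusted p = 0.542) at day 2 and 2.46 ± 0.41 (adjusted p = 0.00137) at day 4. The difference between the days, 2.81 ± 0.57 (adjusted p = 0.00994), passed. Without NoDox_d2 replicate 1 the day 2 value also passed, as a fall (adjusted p = 0.0319), and without both libraries numbered 1 it was −0.76 (adjusted p = 3.91e-05). Beside the members, Dio3os, the antisense partner of Dio3, rose by 4.09 ± 0.49 (adjusted p = 0.000134) at day 2 and 2.63 ± 0.48 (adjusted p = 0.00231) at day 4, from group means of 0.0637 and 0.0926 CPM, which rest on few counts.

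**Figure D3:**
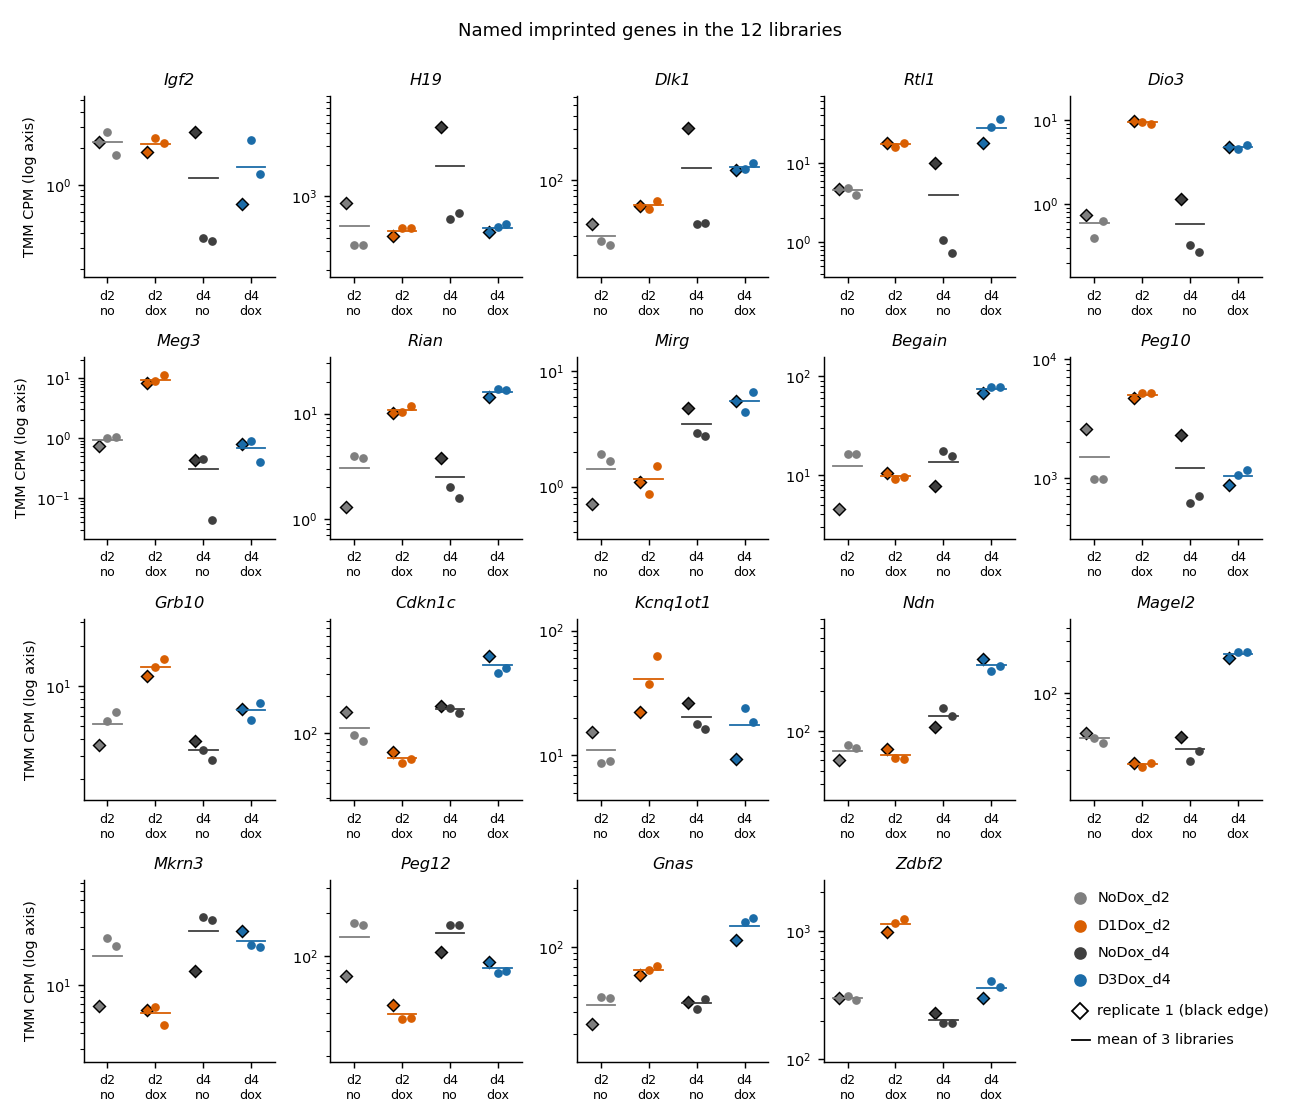
Level (TMM-scaled CPM, log axis) of imprinted genes in each library, by group. Points are libraries, diamonds with a black edge are replicate 1 of each group, and lines are means of 3 libraries. Dio3, Rian and Gnas are higher in the induced libraries of both days, Magel2 is highest in D3Dox_d4 at 212.1 to 242.3 CPM, and H19, Dlk1 and Peg10 show NoDox_d4 replicate 1 far above replicates 2 and 3.

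At the Igf2-H19 locus on chromosome 7, neither gene passed the test in any of the 4 comparisons, although H19 at day 4 lay close to the threshold. Igf2, a fetal growth factor, was counted at 2.26, 2.73 and 1.75 CPM in NoDox_d2 replicates 1, 2 and 3, 1.86, 2.44 and 2.21 in D1Dox_d2, 2.72, 0.366 and 0.346 in NoDox_d4 and 0.687, 2.32 and 1.23 in D3Dox_d4. The day 2 groups overlapped, and at day 4 the highest value was that of NoDox_d4 replicate 1. Its log2 fold change was −0.05 ± 0.65 (adjusted p = 0.966) at day 2 and 0.30 ± 0.68 (adjusted p = 0.794) at day 4. H19, a maternally transcribed noncoding RNA that shares enhancers with Igf2, was 864, 339.7 and 342 CPM in NoDox_d2 replicates 1, 2 and 3, 416, 497 and 498 in D1Dox_d2, 4560, 604 and 691 in NoDox_d4 and 453, 509 and 546 in D3Dox_d4. NoDox_d4 replicate 1 held more than any other library, and NoDox_d2 replicate 1 more than the rest of its day. All D3Dox_d4 values lay below all NoDox_d4 values. The log2 fold change was −0.13 ± 0.64 (adjusted p = 0.901) at day 2 and −1.96 ± 0.66 (adjusted p = 0.0517) at day 4. The latter passed with upper-quartile scaling (adjusted p = 0.0452), with no filter on low counts (0.00566) and with a filter at 1 CPM in 3 libraries (0.0491), and was −0.36 (adjusted p = 0.476) without NoDox_d4 replicate 1. It also passed without any of 3 single libraries, NoDox_d2 replicate 1 and NoDox_d4 replicates 2 and 3 (adjusted p = 0.0195 to 0.0321).

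Without both uninduced libraries numbered 1, H19 changed direction at day 2. It rose by 0.46 (adjusted p = 0.00206) at day 2 and fell at day 4, with a log2 fold change of −0.36 (adjusted p = 0.0116). Igf2 was −0.05 (adjusted p = 0.923) at day 2 and 1.98 (adjusted p = 0.00723) at day 4, where it passed. Of the exon bases of Igf2, 62.8% are shared with Gm49394 on the same strand, so reads of these genes cannot be told apart. A read that falls in both may not be counted, so the Igf2 values may lie below its true level. Igf2r, the receptor that clears IGF2 and is transcribed from the maternal copy, ranged from 161 to 349 CPM and passed on neither day (0.14 and −0.33). Airn, the paternal noncoding RNA that silences it, rose at day 2 from 9 to 67 counts over 3 libraries each, by 2.97 ± 0.64 (adjusted p = 0.00841). At day 4 it had 0 counts in NoDox_d4 and 2 in D3Dox_d4.

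Peg10 and Mest were the most abundant paternally transcribed genes per kilobase of exon in every group. Peg10, derived from a retrotransposon and required in the placenta, was 2557, 977 and 977 CPM in NoDox_d2 replicates 1, 2 and 3, 4647, 5103 and 5153 in D1Dox_d2, 2281, 617 and 700.2 in NoDox_d4 and 875, 1064 and 1157 in D3Dox_d4. D1Dox_d2 lay above all other libraries, and in both uninduced groups replicate 1 was above replicates 2 and 3. The log2 fold change was 1.72 ± 0.49 (adjusted p = 0.0217) at day 2 and −0.22 ± 0.47 (adjusted p = 0.787) at day 4. The difference between the days, −1.94 (adjusted p = 0.0803), did not pass. That difference passed with no filter on low counts (0.0139) and without NoDox_d2 replicate 1 (0.0109), NoDox_d4 replicate 2 (0.0449) or both libraries numbered 1 (2.2e-06). At day 2 Peg10 no longer passed once any of 4 libraries was dropped, namely replicate 2 or replicate 3 of either group (adjusted p = 0.0561 to 0.0859). Without both libraries numbered 1, Peg10 rose at day 2 by 2.34 (adjusted p = 1.25e-09) and, in the opposite direction to the fit with all libraries, at day 4 by 0.65 (adjusted p = 0.000345).

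None of the other 3 genes of the Peg10 cluster passed on either day. Sgce, a sarcoglycan that shares its promoter region with Peg10, ranged from 29.3 to 59.2 CPM with changes of 0.05 and 0.18. Ppp1r9a, a neuronal scaffold protein, was at 28.3 to 70.6 CPM and Asb4, a ubiquitin ligase subunit, at 9.92 to 72.4 CPM. Asb4 was lower in every D1Dox_d2 library than every NoDox_d2 library, with a log2 fold change of −1.22 (adjusted p = 0.0536) that missed the threshold. The non-imprinted collagen gene Col1a2, one of the fibroblast markers, lies within 250 kb. It rose from a mean of 68.4 to 694 CPM at day 2, by 3.34 ± 0.13 (adjusted p = 4.54e-08), and from 44.0 to 343 CPM at day 4. Of 7 genes tested within 250 kb of this cluster, 4 rose at day 2 (57.1%), against 17.4% of the 144 neighbours of all clusters and 14.9% of all genes. Near the Peg3 cluster 0 of 7 and near Igf2r and Airn 0 of 9 rose on that day.

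Mest, a hydrolase-like protein of mesoderm, and Peg3, a zinc finger protein, are shown for their high levels, a choice made after their values were seen. Mest was 714, 1955 and 1851 CPM in NoDox_d2 replicates 1, 2 and 3, 2487, 2487 and 2623 in D1Dox_d2, 2198, 1477 and 1501 in NoDox_d4 and 2645, 2773 and 3018 in D3Dox_d4. The induced libraries lay above the uninduced ones on both days, with log2 fold changes of 0.75 ± 0.30 (adjusted p = 0.078) and 0.70 ± 0.30 (adjusted p = 0.108) that did not pass. Without both libraries numbered 1 they were 0.41 (adjusted p = 0.000898) and 0.92 (adjusted p = 9.36e-07), and both passed. Copg2, a coatomer subunit, shares 912 exon bases with Mest on the opposite strand, and its level of 46.9 to 85.8 CPM may include Mest reads. Peg3 was 1603, 686 and 702 CPM in NoDox_d2 replicates 1, 2 and 3, 1086, 1313 and 1271 in D1Dox_d2, 1386, 336 and 349 in NoDox_d4 and 482, 665 and 644 in D3Dox_d4. Replicate 1 was the highest library of both uninduced groups, and the log2 fold changes were 0.29 ± 0.49 (adjusted p = 0.688) and −0.21 ± 0.49 (adjusted p = 0.802). Without the libraries numbered 1 Peg3 rose on both days, by 0.81 (adjusted p = 8.3e-05) and 0.80 (adjusted p = 0.000154). Usp29 and Zim1, its partners in the cluster, ranged from 15.8 to 43.3 and from 5.98 to 23.9 CPM and passed on neither day.

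The Snrpn-Ube3a cluster on chromosome 7, the region of Prader-Willi and Angelman syndromes in humans, gave different calls on the 2 days, and Magel2 changed in opposite directions. At day 2, Magel2, Mkrn3 and Peg12 fell and none of the 6 genes tested rose. At day 4, Magel2 and Ndn rose and Peg12 fell. Magel2, a MAGE protein of endosomal sorting, was 43.5, 39.0 and 35.0 CPM in NoDox_d2 replicates 1, 2 and 3, 23.2, 21.0 and 23.0 in D1Dox_d2, 39.6, 23.9 and 29.6 in NoDox_d4 and 212, 242 and 242 in D3Dox_d4. D1Dox_d2 lay below NoDox_d2 and D3Dox_d4 above every other library. The log2 fold change was −0.81 ± 0.16 (adjusted p = 0.0036) at day 2 and 2.90 ± 0.17 (adjusted p = 8.01e-07) at day 4, with a difference between the days of 3.71 ± 0.23 (adjusted p = 2.34e-05). Ndn, which encodes necdin, a MAGE protein of postmitotic neurons, was 60.1, 78.8 and 74.1 CPM in NoDox_d2 replicates 1, 2 and 3, 72.5, 63.0 and 61.8 in D1Dox_d2, 106, 149.7 and 129.8 in NoDox_d4 and 352, 283 and 310.1 in D3Dox_d4. The day 2 groups overlapped, and D3Dox_d4 was above NoDox_d4. It changed by −0.11 ± 0.14 (adjusted p = 0.604) at day 2, rose by 1.29 ± 0.15 (adjusted p = 0.0001) at day 4, and the difference of 1.40 ± 0.20 (adjusted p = 0.00216) passed. Magel2 and Ndn lie next to each other, and the neuron marker sum was 1667 to 1844 CPM in the same D3Dox_d4 libraries.

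Peg12 and Mkrn3, which lie next to them, did not show the rise of day 4. Peg12, a Frat family gene, was 72.3, 169 and 165 CPM in NoDox_d2 replicates 1, 2 and 3, 45.3, 36.7 and 36.8 in D1Dox_d2, 107, 166 and 164 in NoDox_d4 and 90.9, 76.4 and 79.2 in D3Dox_d4. Its induced libraries lay below the uninduced ones on both days, with log2 fold changes of −1.77 ± 0.28 (adjusted p = 0.000951) and −0.83 ± 0.27 (adjusted p = 0.0484). The day 4 call was lost on leaving out any of 9 single libraries, all but NoDox_d2 replicates 1 and 2 and NoDox_d4 replicate 1, with adjusted p-values of 0.053 to 0.14, and with robust moderation (0.052) or the replicate block (0.0652). Mkrn3, a ubiquitin ligase, was 6.71, 24.6 and 21.0 CPM in NoDox_d2 replicates 1, 2 and 3, 6.25, 6.63 and 4.68 in D1Dox_d2, 13.01, 36.6 and 34.4 in NoDox_d4 and 28.1, 21.2 and 20.5 in D3Dox_d4. The D1Dox_d2 libraries lay below NoDox_d2, with a log2 fold change of −1.57 ± 0.46 (adjusted p = 0.0253), and the day 4 groups overlapped (−0.27). The difference between the days, 1.31 (adjusted p = 0.187), did not pass. It passed without NoDox_d2 replicate 1 (0.0202) and without both libraries numbered 1 (0.000299). The day 2 call of Mkrn3 was lost without any single library of the day 2 groups other than NoDox_d2 replicate 1 (adjusted p = 0.0597 to 0.0959). Without both libraries numbered 1, Peg12 stood at a log2 fold change of −2.08 (adjusted p = 9.13e-10) and Mkrn3 at −1.96 (adjusted p = 1.63e-07) at day 2.

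At the other end of the cluster, Snrpn, a spliceosome protein, ranged from 37.6 to 103 CPM and Ube3a, a ubiquitin ligase transcribed from the maternal copy in neurons, from 101 to 145 CPM. Neither passed on either day. Snurf, an upstream reading frame of the Snrpn transcript, had 0 counts in every library. All of its exon bases are shared with Snrpn and Gm38393, and a read that falls in several genes may not be counted, so its 0 says nothing of its transcription. Snhg14, the long noncoding RNA antisense to Ube3a, fell at day 2, with a log2 fold change of −1.50 ± 0.39 (adjusted p = 0.0155), from 196 to 69.0 CPM in mean.

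In the Kcnq1 cluster on chromosome 7, the noncoding RNA and a growth inhibitor moved in opposite directions at day 2. Whether these changes are related was not tested. Kcnq1ot1, the paternal antisense RNA, was 15.3, 8.74 and 9.04 CPM in NoDox_d2 replicates 1, 2 and 3, 22.3, 37.6 and 62.2 in D1Dox_d2, 26.4, 17.7 and 16.2 in NoDox_d4 and 9.40, 24.0 and 18.6 in D3Dox_d4. D1Dox_d2 lay above NoDox_d2 and spread widely, and the day 4 groups overlapped. It rose by 1.88 ± 0.42 (adjusted p = 0.00656) at day 2 and changed by −0.21 ± 0.40 (adjusted p = 0.751) at day 4. Cdkn1c, the maternally transcribed inhibitor of cyclin-dependent kinases known as p57, was 149, 96.4 and 86.2 CPM in NoDox_d2 replicates 1, 2 and 3, 70.9, 57.8 and 61.7 in D1Dox_d2, 164, 158 and 146 in NoDox_d4 and 414, 306 and 333 in D3Dox_d4. It was lower in every D1Dox_d2 library than in NoDox_d2 and higher in every D3Dox_d4 library than in all others. It fell at day 2, with −0.80 ± 0.19 (adjusted p = 0.00897), and rose at day 4, by 1.17 ± 0.19 (adjusted p = 0.00104). The difference between the days was 1.97 ± 0.26 (adjusted p = 0.00138) for Cdkn1c and −2.09 ± 0.58 (adjusted p = 0.0354) for Kcnq1ot1. The latter call was lost without any of 7 single libraries (adjusted p = 0.0598 to 0.0937), namely D1Dox_d2 replicates 2 and 3, D3Dox_d4 replicates 1 and 3, NoDox_d2 replicates 2 and 3 and NoDox_d4 replicate 1. Kcnq1ot1 lies inside Kcnq1 on the other strand, and unspliced Kcnq1 reads would be counted with it.

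The other 4 genes of this cluster passed on neither day. Phlda2, which restrains placental growth, ranged from 5.80 to 42.2 CPM and Ascl2, a helix-loop-helix factor of trophoblast, from 0.269 to 6.07 CPM. Both were highest in the library labelled NoDox_d2 replicate 1. Tssc4, a spliceosome protein, was at 29.0 to 39.4 CPM and Slc22a18, a transporter, at 0.276 to 1.20 CPM. Their changes were 0.15 and −0.39 at day 2 and −0.11 and 0.39 at day 4. Without both libraries numbered 1, Phlda2 rose at day 2 by 0.82 (adjusted p = 0.000279).

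Gnas, Grb10 and Zdbf2 each rose on both days. Gnas encodes the stimulatory G protein subunit and is transcribed from both copies in most tissues. It was 24.0, 39.7 and 38.9 CPM in NoDox_d2 replicates 1, 2 and 3, 59.8, 65.2 and 70.8 in D1Dox_d2, 36.3, 32.1 and 38.0 in NoDox_d4 and 115, 159 and 173 in D3Dox_d4. Induced libraries lay above uninduced ones on each day, by 0.93 ± 0.19 (adjusted p = 0.00482) at day 2 and 2.07 ± 0.20 (adjusted p = 3.1e-05) at day 4. The difference of 1.14 ± 0.27 (adjusted p = 0.0209) passed, but not without any of 6 single libraries (adjusted p = 0.05 to 0.0544), which were replicates 1 and 2 of D1Dox_d2 and replicates 2 and 3 of D3Dox_d4 and of NoDox_d2. Nespas, on the opposite strand, shares 8.68% of the Gnas exon bases and rose at day 2 by 1.12 ± 0.34 (adjusted p = 0.0303). Counts per gene pool all transcripts of the Gnas gene model, so which of them rose was not tested. Grb10, an adaptor that damps insulin and IGF1 receptor signals, was 3.60, 5.49 and 6.40 CPM in NoDox_d2 replicates 1, 2 and 3, 11.8, 13.8 and 15.9 in D1Dox_d2, 3.87, 3.33 and 2.81 in NoDox_d4 and 6.76, 5.61 and 7.48 in D3Dox_d4. The induced values were again above the uninduced ones, by 1.42 ± 0.24 (adjusted p = 0.00123) and 0.99 ± 0.24 (adjusted p = 0.0112).

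Zdbf2, a paternally transcribed zinc finger gene whose dose affects growth after birth, had the lowest adjusted p of the 47 genes at day 2. Its level was 297, 310.1 and 290.3 CPM in NoDox_d2 replicates 1, 2 and 3, 988, 1143 and 1242 in D1Dox_d2, 229, 191 and 191 in NoDox_d4 and 299.9, 409 and 365 in D3Dox_d4. D1Dox_d2 lay above every other library, D3Dox_d4 above NoDox_d4, and NoDox_d4 below NoDox_d2. The rise was 1.91 ± 0.13 (adjusted p = 2.37e-06) at day 2 and 0.81 ± 0.13 (adjusted p = 0.00101) at day 4, and the day 4 value minus the day 2 value was −1.10 ± 0.18 (adjusted p = 0.00375). The gene model counted here begins at chr1:63273265, so the upstream start whose window is printed above lies outside it, and transcription from either start that reaches the shared exons would be counted. The neighbouring receptor gene Gpr1 rose at day 2 by 2.93 ± 0.51 (adjusted p = 0.00166), from 0.194 to 1.53 CPM in mean.

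Plagl1, a zinc finger factor of growth control, fell at day 4. It had 35 counts over the 3 NoDox_d2 libraries, 54 in D1Dox_d2, 26 in NoDox_d4 and 0 in D3Dox_d4. At 0.316, 0.163 and 0.538 CPM in NoDox_d4 replicates 1, 2 and 3 and 0 in all D3Dox_d4 libraries, the groups did not overlap (adjusted p = 0.00205). Set against a limit of 3 counts over D3Dox_d4, the level of NoDox_d4 was 9.12-fold higher. That ratio takes the 26 counts as exact, so it is no strict bound. The difference between the days also passed (adjusted p = 0.00553).

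Among the single loci, H13 and Zrsr1 rose at day 2 and Mcts2, Inpp5f and Trappc9 at day 4. H13, a signal peptide peptidase, rose by 0.79 ± 0.12 (adjusted p = 0.000851). Zrsr1, a splicing factor retrogene within Commd1, rose by 0.72 ± 0.15 (adjusted p = 0.00504), and Commd1 itself passed on neither day (−0.47 (adjusted p = 0.0501) at day 4). Mcts2, a retrogene within H13, rose by 0.50 ± 0.13 (adjusted p = 0.0188) and Inpp5f, a phosphoinositide phosphatase, by 0.42 ± 0.11 (adjusted p = 0.0212). Trappc9, a subunit of a vesicle tethering complex, rose by 0.59 ± 0.17 (adjusted p = 0.0285) at day 4. These 3 calls were each lost on leaving out a single library: D3Dox_d4 replicate 1 or NoDox_d4 replicate 3 for Mcts2 (adjusted p = 0.0699 to 0.0723, and 0.0694 in a fit of the day 4 libraries alone), and D3Dox_d4 replicate 2 or 3 or NoDox_d4 replicate 1 for Inpp5f (0.052 to 0.0655) and Trappc9 (0.0692 to 0.0901).

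Peg13, a noncoding RNA within Trappc9, rose at day 2 from 17 to 60 counts, by 1.91 ± 0.52 (adjusted p = 0.0179), and this was lost without any D1Dox_d2 library or NoDox_d2 replicate 3 (0.0518 to 0.0847). Nnat, a membrane proteolipid, was at 0.712 to 1.99 CPM, Nap1l5, a nucleosome assembly protein, at 0.651 to 4.88 CPM and Sfmbt2, a Polycomb protein, at 6.51 to 37.9 CPM. Impact, a regulator of translation, was at 80.9 to 169 CPM. None of these 4 passed on either day. Slc38a4, an amino acid transporter, had at most 1.14 CPM. Rasgrf1, an exchange factor for Ras, had 3 counts in NoDox_d4 and 23 in D3Dox_d4, a ratio of 7.29 with a 95% interval of 2.20 to 37.9 from counting error alone.

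The effect of doxycycline differed between the days for 10 of the 47 genes. The log2 fold change was higher at day 4 for 6, Magel2, Cdkn1c, Ndn, Begain, Gnas and Trappc9, against 6.66% of all genes. It was lower at day 4 for 4, Zdbf2, Plagl1, Kcnq1ot1 and H13, against 6.24% of all genes. The median of this difference was 0.14 over the 47 genes and 0.00 over all genes. Trappc9 differed by 0.99 ± 0.24 (adjusted p = 0.0229) and H13 by −0.59 ± 0.17 (adjusted p = 0.0437). Trappc9 was lost without any of 6 single libraries (0.0509 to 0.0592), replicates 1 and 3 of D1Dox_d2 and replicates 2 and 3 of D3Dox_d4 and NoDox_d2. H13 was lost without any of 9 (0.0525 to 0.114), all but NoDox_d2 replicate 1 and NoDox_d4 replicates 2 and 3, and with no filter on low counts (0.0876). The number called was 6 without NoDox_d2 replicate 2 or 3 and 20 without NoDox_d2 replicate 1.

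Between days 2 and 4 without doxycycline, 3 genes rose and 3 fell, which is 6.38% each, against 5.09% and 5.55% of all genes. Ndn rose by 0.86 ± 0.15 (adjusted p = 0.00364), Nap1l5 by 1.47 ± 0.34 (adjusted p = 0.0168) and Mirg by 1.30 ± 0.38 (adjusted p = 0.0496). Ascl2 fell, with −2.97 ± 0.51 (adjusted p = 0.00395), as did Snrpn, with −0.81 ± 0.18 (adjusted p = 0.0138), and Zdbf2, with −0.55 ± 0.13 (adjusted p = 0.0185). Ascl2 was at 6.07, 2.65 and 1.60 CPM in NoDox_d2 replicates 1, 2 and 3 and 0.592, 0.447 and 0.269 in NoDox_d4, with no overlap. The libraries numbered 1 of these groups deviated together, but numbers 2 and 3 correlated crosswise as much as by number. The replicate number is thus not shown to pair them. With it as a block Mirg lost its call (adjusted p = 0.0712). With that block Cdkn1c rose (0.53, adjusted p = 0.0288) and Phlda2 fell (−1.41, adjusted p = 0.0231). Mirg was also lost with DESeq2 size factors (0.0505), with upper-quartile scaling (0.0533) and without any single library except NoDox_d2 replicate 2 (0.067 to 0.0943). In a fit of the 6 uninduced libraries alone, all 6 genes lost their call (0.0626 to 0.214). Snrpn was lost without NoDox_d2 replicate 3 (0.0505), Nap1l5 without that library or NoDox_d4 replicate 2 (0.0558 to 0.0593), and Zdbf2 without NoDox_d2 replicate 2 or NoDox_d4 replicate 2 or 3 (0.051 to 0.0781). The count was 4 without NoDox_d2 replicate 3 and 14 without NoDox_d4 replicate 1.

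Leaving out both uninduced libraries numbered 1 raised the number of calls, among imprinted genes and over all genes alike. At day 2, 20 rose and 10 fell, against 26.8% and 26.4% of all genes, and each of the 16 calls made with all libraries kept its direction. At day 4, 26 rose and 6 fell, against 20.6% and 17.9%, and each of the 15 calls was kept. The median log2 fold change of the 47 genes was then 0.22 at day 2 against 0.00 over all genes, and 0.44 at day 4 against −0.01. For the difference between the days, 21 were higher and 10 lower at day 4, against 18.7% and 15.8%, with all 10 calls kept. Between days 2 and 4 without doxycycline, 6 rose and 17 fell, against 13.4% and 11%, and 5 of the 6 calls were kept.

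Several abundant genes were among the new calls. At day 2 the new calls included Dlk1, Rtl1, Peg3, Mest, H19 and Phlda2 as rises and Asb4 and Begain as falls. At day 4 they included Igf2, Dlk1, Meg3 (1.54 (adjusted p = 0.0488)), Peg3, Peg10, Mest, Asb4 (0.80 (adjusted p = 6.32e-05)) and Usp29 (0.87 (adjusted p = 3.53e-05)) as rises and H19 as a fall. Over time without the drug, Peg3 fell, with −1.02 (adjusted p = 7.6e-05), and Igf2 fell, with −2.63 (adjusted p = 0.00209), while H19 rose by 0.93 (adjusted p = 3.96e-05) and Dlk1 by 0.62 (adjusted p = 0.000721). In these fits the uninduced groups hold 2 libraries each, and their spread is that of libraries that correlated at 0.996 and 0.997.

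**Figure D4:**
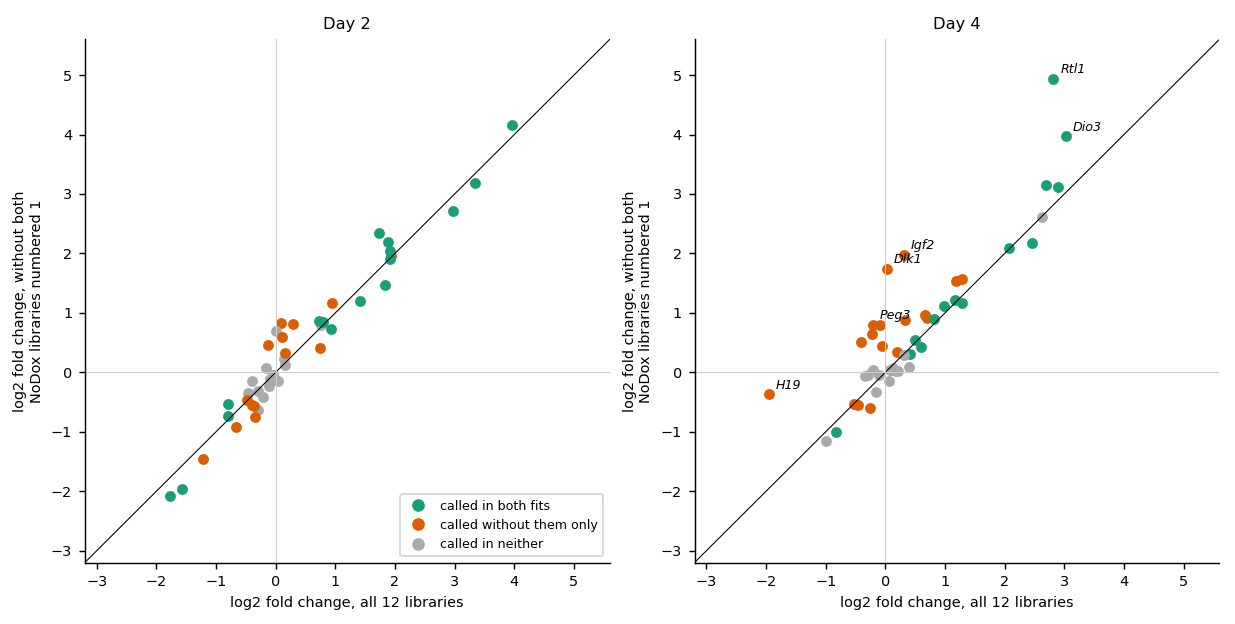
Log2 fold change of each imprinted gene with all 12 libraries (x axis) and without both uninduced libraries numbered 1 (y axis), at day 2 and day 4. Genes called in both fits are green, genes called only without these libraries are orange, and other genes are grey. Dlk1 and Igf2 at day 4 lie far above the diagonal, at 1.74 and 1.98 on the y axis. Plagl1 is left out.

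Genes that keep or erase imprints were taken from a list of 20, of which 17 were tested. At day 2, 2 of these rose and 3 fell, or 11.8% and 17.6%, against 14.9% and 13.4% of all genes. At day 4, 1 rose and 8 fell, or 5.88% and 47.1%, against 13.4% and 10.2%. Zfp57, whose motif was looked for in the windows above, rose from a mean of 93.8 to 268 CPM at day 2, by 1.51 ± 0.08 (adjusted p = 3.03e-07). At day 4 it rose from 71.6 to 128 CPM, by 0.84 ± 0.08 (adjusted p = 2.55e-05), and the difference between the days passed, with −0.67 (adjusted p = 0.0037). Dnmt3b, a DNA methyltransferase that sets new methylation and is itself an epiblast marker, fell on both days, with −1.71 ± 0.13 (adjusted p = 4.6e-06) and −0.97 ± 0.13 (adjusted p = 0.000294). It also fell over time without the drug, with −1.47 (adjusted p = 9.27e-05). Tet2, which oxidises methylcytosine, rose at day 2 by 0.75 ± 0.19 (adjusted p = 0.013), and Hells, a chromatin remodeller needed for methylation, fell at day 4, with −0.75 ± 0.10 (adjusted p = 0.000249). For the difference between the days, 1 was higher and 3 were lower at day 4 (all genes, 6.66% and 6.24%), and over time 2 rose and 3 fell (all genes, 5.09% and 5.55%).

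A further list of 30 imprinted genes outside the 50 had 25 tested. At day 2, 8 rose and 6 fell, or 32% and 24%, against 14.9% and 13.4% of all genes. At day 4, 8 rose and 5 fell, or 32% and 20%, against 13.4% and 10.2%. Gab1, a docking protein of receptor tyrosine kinases, rose on both days, by 2.19 ± 0.15 (adjusted p = 2.2e-06) and 1.70 ± 0.15 (adjusted p = 1.45e-05). Qpct, which forms pyroglutamate at peptide ends, rose at day 2 by 3.23 ± 0.36 (adjusted p = 8.21e-05) and Calcr, the calcitonin receptor, at day 4 by 4.15 ± 0.36 (adjusted p = 1.35e-05). Smoc1, a secreted BMP antagonist, fell at day 2, with −2.39 ± 0.17 (adjusted p = 2.74e-06), and Jade1 fell at day 4, with −0.93 ± 0.09 (adjusted p = 2.68e-05). Dcn, a proteoglycan of fibroblasts, had a day 4 effect below that of day 2, with a difference of −4.85 ± 0.74 (adjusted p = 0.00281). Kcnq1, a potassium channel, and Herc3 had it above, by 3.18 ± 0.68 (adjusted p = 0.0127) and 1.01 ± 0.22 (adjusted p = 0.0139). Over time without the drug 5 rose and 4 fell (all genes, 5.09% and 5.55%), and the lowest adjusted p-values were those of Smoc1 at 1.98 (adjusted p = 6.18e-05), Herc3 at −1.07 (adjusted p = 0.00168) and Casd1 at 0.69 (adjusted p = 0.00362).

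Genes within 250 kb of the 50, but not among them, were called at shares near those of all genes. They include genes of the further list of imprinted genes, such as Kcnq1, Herc3, Blcap and Nespas, so they are not a background free of imprinted genes. Of 144 tested, 25 rose and 22 fell at day 2, or 17.4% and 15.3% against 14.9% and 13.4% of all genes. At day 4, 22 rose and 11 fell, or 15.3% and 7.64% against 13.4% and 10.2%. Near Mest, 3 of 9 rose at day 2, with a median of 1.36, led by Ssmem1 at 5.92 ± 0.63 (adjusted p = 5.85e-05), whose mean went from 0.0737 to 4.79 CPM. Near the Dlk1-Dio3 cluster 2 of 11 rose and 4 fell at day 2, and 2 rose at day 4. Near the Snrpn-Ube3a cluster 2 of 8 rose and 3 fell at day 2, and none rose and 2 fell at day 4, when Magel2 and Ndn rose.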

How the data were processed

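The members, gene lists, comparisons and tests were chosen with earlier results of these data known. The labels' protocols give a NEBNext Ultra II preparation, paired reads of 150 bp, and Trim Galore with a minimum of 50 bp. Builds GRCm38 and mm10 and the tools featureCounts, STAR and DESeq2 appear in the submitters' processing notes. The deposited values are raw counts per gene, made with featureCounts 2.0.1 on GENCODE vM25 without a strand setting, per the file headers, so overlapping and antisense genes are uncertain. Symbols were matched for 55141 of 55487 identifiers.

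From the counts, edgeR 4.0.16 (limma 3.58.1, R 4.3.3) fitted 1 coefficient per group to all 12 libraries, with TMM scaling, filterByExpr and 8 residual degrees of freedom, and its quasi-likelihood test was adjusted by Benjamini-Hochberg over 18109 genes. Fold changes are log2 ± SE, the SE being |log2 fold change| over the root of F. The 4 comparisons are doxycycline against none at day 2 and at day 4, the day 4 effect minus the day 2 effect, and day 4 against day 2 without the drug. The fit was tested on simulated counts.

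Values per library are given for genes called with an absolute log2 fold change of at least 1 and at least 5 CPM on average in the highest group, and for Igf2, H19, Dlk1 and Meg3. From the lists of imprint regulators and other imprinted genes, up to 3 called genes with the lowest adjusted p per comparison are named. Neighbours named singly were chosen after their values were seen. Replicates were checked against each other and no pair agreed within sampling noise.

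Replicate numbers are shared by all groups. The deviations of same-numbered NoDox_d2 and NoDox_d4 libraries correlated at 0.595, 0.466 and 0.415. Numbers 2 and 3 also correlated crosswise, at 0.541 and 0.462, so they cannot be told apart and only the libraries numbered 1 stood out. The labels state no pairing. The main fit therefore held no block, and the replicate block was run as an alternative. Same-numbered libraries of the other compared groups correlated at −0.172 to 0.065. Alternatives were other scalings (DESeq2 size factors, upper quartile), no filter, a filter of 1 CPM in 3 libraries, DESeq2 1.42.0, robust moderation, the replicate block, only the libraries compared, each library left out in turn, and both uninduced libraries numbered 1 left out.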

Additional observations from a re-analysis of the deposited data

Results flagged for a closer look

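The effect of doxycycline differed between the days, by the test of the difference itself (day 4 minus day 2, log2), for 10 imprinted genes. The difference was 3.71 for Magel2, 2.81 for Begain, 1.97 for Cdkn1c, 1.40 for Ndn, 1.14 for Gnas and 0.99 for Trappc9. It was −0.59 for H13, −1.10 for Zdbf2 and −2.09 for Kcnq1ot1. For Plagl1 the fitted value was −6.91, which is no bound because D3Dox_d4 held 0 counts. Magel2 and Cdkn1c fell at day 2 and rose at day 4.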

How the results depend on the processing

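Of the 47 calls of single imprinted genes, 29 kept their direction and their side of the threshold in every alternative that tested the gene. Airn and Plagl1, which have few counts, were among these and were not tested in every alternative. Of the 47 calls, 16 were lost when 1 library was left out, 8 when only the libraries compared were fitted, and 4 in alternatives that keep all 12 libraries. Without both uninduced libraries numbered 1, 30 genes were called at day 2, 32 at day 4, 31 for the difference between the days and 23 over time without doxycycline. Leaving out 1 library gave 13 to 22 calls at day 2, 11 to 20 at day 4, 6 to 20 for the difference and 4 to 14 over time. Over time, no filter on low counts gave 10 calls, and a fit of only the libraries compared gave 0 (84 of all genes rose and 122 fell). The causes were not tested.

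Without both libraries numbered 1, H19 at day 2 (0.46) and Peg10 at day 4 (0.65) reversed. For Dlk1 the difference between the days reversed both there (0.58) and without NoDox_d4 replicate 1 (0.81), and lay between −1.33 and 0.81 over the fits that left out 1 library. With the replicate block, 18 genes were called at day 2, 15 at day 4, 9 for the difference and 7 over time. In the doxycycline comparisons, same-numbered libraries did not deviate together. There the block added Ppp1r9a and Trappc9 at day 2 and Ascl2 at day 4, and removed Peg12 at day 4 and Kcnq1ot1 in the difference. Other scalings shifted the median of all genes by at most 0.05 on the log2 scale. Genes of few counts, such as Airn, Plagl1 and Peg13, are limited by depth.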
